A study of Mus musculus with 12 samples.

Results

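Respiratory complex I, the NADH:ubiquinone oxidoreductase of the inner mitochondrial membrane, is built from subunits of both genomes, and the genes described here are 35 of its nuclear-encoded subunits. They were chosen by name, as the listed Nduf symbols, and each of the 35 matched exactly 1 of 21959 gene IDs in the count table. Poly-A RNA had been sequenced from heart ventricles of 12 male mice aged 7 weeks and fed chow. The compared groups were 6 mice with a knockout of Vps13c (Vps13c-cKO) and 6 wild-type mice (WT). The protein made from Vps13c is a bridge that transfers lipids between organelle membranes. The labels do not give the deleted exons, the driver of the knockout or whether WT mice carried a driver, and each library is labelled as a separate mouse.

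Complex I takes electrons from NADH and passes them to ubiquinone, and it uses the energy released to pump protons out of the mitochondrial matrix. Electrons enter at the NADH module (N), run along iron-sulfur clusters into the quinone module (Q), and proton pumping takes place in a membrane arm that has a proximal and a distal part. Heart muscle depends on this chain for most of its ATP. The catalytic core consists of nuclear subunits in the N and Q modules and of mitochondrially encoded subunits in the membrane arm, and the other nuclear subunits, called accessory, surround the core and are needed for its assembly or stability. Of the 35 genes, 6 encode core and 29 accessory subunits. Authors differ on the place of Ndufa6, Ndufa7 and Ndufa9, and Ndufab1, whose protein sits at more than a single position, was kept apart.

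The libraries held 12484523 to 15562942 gene counts, and 12384 genes passed the filter on low counts, all 35 subunit genes among them. Vps13c was at 16.3 to 20.3 CPM (counts relative to library size, scaled with TMM factors) in Vps13c-cKO ventricles, against 54.6 to 68.6 CPM in WT ventricles (log2 fold change -1.77, edgeR adjusted p = 4.47e-14), so every library had the level its label calls for. Cardiomyocyte markers were abundant in both groups, and the 6 listed markers of fast skeletal fibres (Myh1, Myh2, Myh4, Actn3, Tnnc2 and Pvalb) had at most 6 counts in any library. Other fast-fibre genes, named here after their values were seen, were detected at unequal levels. Atp2a1 averaged 33.0 CPM in Vps13c-cKO and 0.605 CPM in WT, Casq1 23.0 CPM in Vps13c-cKO and 7.67 CPM in WT, Mylpf 7.32 CPM in Vps13c-cKO and 0.783 CPM in WT, and Tnni2 6.59 CPM in Vps13c-cKO and 0.757 CPM in WT. In 2 libraries, transcripts of other tissue were present. Vps13c-cKO mouse 1 had 4433 counts over 8 hepatocyte genes, against 9 to 35 in the other Vps13c-cKO mice and 5 to 20 in WT mice. WT mouse 4 had 405 counts of Myl7 and 114 of Sln, both atrial genes, against at most 5 and 1 in any other library. The fourth atrial marker of the list, Nppa, also marks ventricular stress and was higher in Vps13c-cKO mice, at 156 to 372 counts. In WT mouse 4 it had 110 counts, above the 43 to 76 of the other WT mice. The subunit genes that fell and mt-Nd4 are therefore also given below without Vps13c-cKO mouse 1 and without WT mouse 4. The ranges of list sums below are over all mice.

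Of the 35 genes, 3 fell in Vps13c-cKO ventricles and 0 rose, each by a small fraction of its WT level. Ndufab1 encodes the mitochondrial acyl carrier protein, which serves mitochondrial fatty acid synthesis and also binds complex I. Ndufs1 encodes the largest core subunit, the main holder of iron-sulfur clusters in the N module. Ndufc2 encodes an accessory subunit of the proximal membrane arm. By edgeR's quasi-likelihood test with Benjamini-Hochberg adjustment over all 12384 genes, the threshold for a call was an adjusted p of 0.05, and 5.10% of all tested genes were called lower and 5.65% higher. The count of 3 in 35 lower subunits is to be read against that share. At an unadjusted p under 0.05 there were 5 of 35 subunit genes, the other two being Ndufb9 and Ndufb11, while 23.8% of all tested genes passed that mark. By DESeq2 and by limma-voom the same 3 genes were called lower and 0 higher.

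Ndufab1 (ENSMUSG00000030869, chromosome 7) had 41.8, 43.7, 43.8, 42.2, 46.6 and 48.9 CPM in Vps13c-cKO mice 1 to 6, against 54.9, 56.8, 53.6, 51.2, 57.0 and 54.2 CPM in WT mice 1 to 6. Every Vps13c-cKO mouse lay below every WT mouse. The mean was 44.5 ± 2.72 CPM in Vps13c-cKO and 54.6 ± 2.16 CPM in WT (SD, n = 6 each), so that Vps13c-cKO ventricles held 81.4% of the WT level. The log2 fold change was -0.30 ± 0.05 (SE, edgeR adjusted p = 0.000189). It was -0.28 without Vps13c-cKO mouse 1 and -0.31 without WT mouse 4, and called in both fits. A processed pseudogene, Ndufab1-ps, is annotated and has no row in the count table, so reads shared with it could not be followed.

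Ndufs1 (ENSMUSG00000025968, chromosome 1) had the highest CPM of the subunit genes, without regard to length, and fell by 12.3% of its WT mean, against 18.5% for Ndufab1. It had 512, 542, 522, 519, 528 and 525 CPM in Vps13c-cKO mice 1 to 6, against 596, 601, 606, 574, 578 and 638 CPM in WT mice 1 to 6. Again no Vps13c-cKO mouse reached the lowest WT mouse. The group means were 524.8 ± 10.2 CPM in Vps13c-cKO and 598.7 ± 23.1 CPM in WT (SD, n = 6 each), or 87.6% of WT, with a log2 fold change of -0.19 ± 0.03 (SE, edgeR adjusted p = 0.000391). Without Vps13c-cKO mouse 1 the value was -0.18 and without WT mouse 4 it was -0.20, both called. On the opposite strand its exons overlap those of Eef1b2 by 9 bases and those of the non-coding gene Ino80dos over 6.05% of their length. Eef1b2 was not called (log2 fold change 0.05, adjusted p = 0.495), and Ino80dos has no row in the count table.

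Ndufc2 (ENSMUSG00000030647, chromosome 7) had 102, 105, 101, 102, 105 and 99.0 CPM in Vps13c-cKO mice 1 to 6, against 114, 114, 110, 122, 122 and 125 CPM in WT mice 1 to 6. The groups did not overlap, and Vps13c-cKO mice were closer together than WT mice. The means were 102.3 ± 2.44 CPM in Vps13c-cKO and 117.8 ± 6.12 CPM in WT (SD, n = 6 each), or 86.8% of WT, and the log2 fold change was -0.20 ± 0.04 (SE, edgeR adjusted p = 0.00131). It stayed called at -0.20 without Vps13c-cKO mouse 1 and at -0.19 without WT mouse 4.

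**Figure D1:**
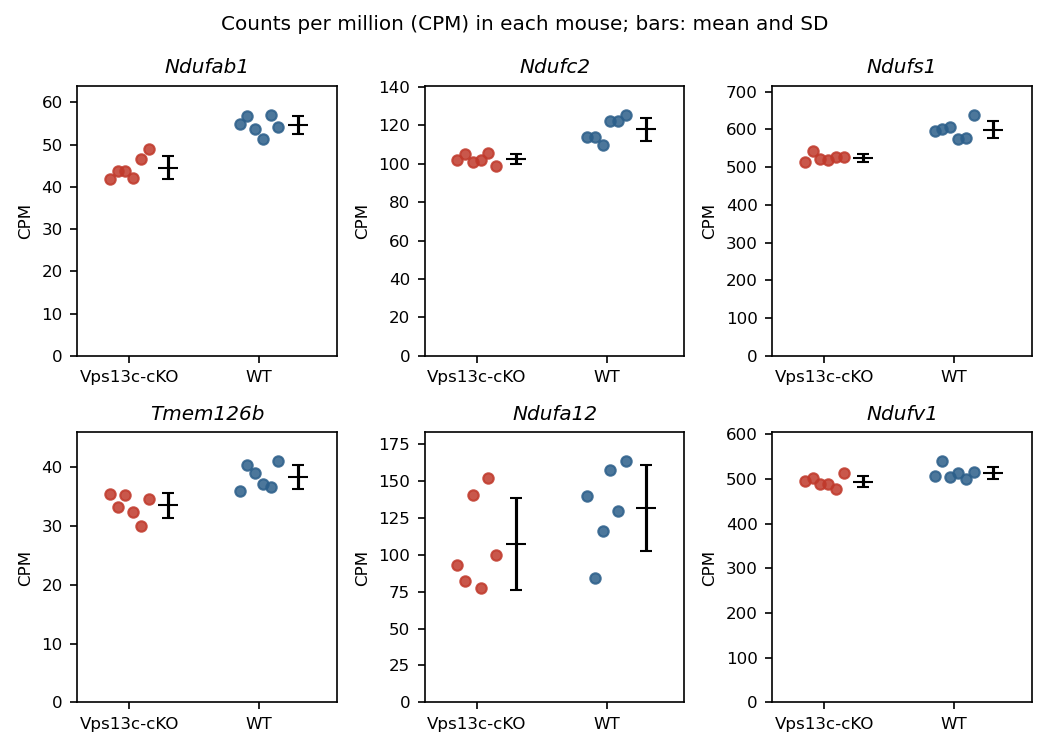
Level in CPM (y axes, from 0) of 6 genes in each mouse, Vps13c-cKO left (red) and WT right (blue), with the group mean and SD in black. Ndufab1, Ndufc2, Ndufs1 and the assembly factor gene Tmem126b show every Vps13c-cKO mouse below every WT mouse, Ndufa12 spreads from 77.1 to 163 CPM with overlapping groups, and Ndufv1 is at means of 494 CPM in Vps13c-cKO and 514 CPM in WT.

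These 3 were also the members whose groups did not overlap. Complete separation with Vps13c-cKO below was seen for 2.18% of all tested genes and with Vps13c-cKO above for 2.75%. The second pattern was seen in 0 subunit genes. Position on the genome is a second background. Ndufab1 and Ndufc2 are 2 of only 3 subunit genes on chromosome 7, the other being Ndufa3 (log2 fold change -0.02 ± 0.07, adjusted p = 0.9). On chromosome 7, 8.90% of tested genes were called lower, against 4.78% on the other chromosomes. Counted in the same fit without chromosome 7 genes, 1 of 32 subunit genes was lower, Ndufs1. Among the nearest tested genes beside Ndufc2, Thrsp, a lipogenic regulator, rose to 49.1 ± 5.38 CPM in Vps13c-cKO, against 19.0 ± 4.06 CPM in WT (SD, n = 6 each; log2 fold change 1.37 ± 0.10 SE, edgeR adjusted p = 1.44e-08), the opposite direction to Ndufc2 itself. Of the nearest tested genes, 2 on each side, no other beside Ndufc2 and none beside Ndufab1 or Ndufs1 was called. What part the chromosome has in these falls was not tested.

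The promoters of both called subunit genes of chromosome 7 are shown because these genes fell together and lie on the same chromosome. The windows run from 250 bases before to 50 bases after the RefSeq gene start in the build GRCm38.p6, which is not the build of the counts, and are written 5′ to 3′ on the gene's strand. Ndufab1 is at chr7:122101799-122102098 on the minus strand and Ndufc2 at chr7:97399753-97400052 on the plus strand. Capitals mark the matches to 6 motifs searched on both strands, which are a GC box of SP1 in Ndufab1 (GGGCGG, here on the opposite strand) and a CCAAT box in Ndufc2.
Ndufab1: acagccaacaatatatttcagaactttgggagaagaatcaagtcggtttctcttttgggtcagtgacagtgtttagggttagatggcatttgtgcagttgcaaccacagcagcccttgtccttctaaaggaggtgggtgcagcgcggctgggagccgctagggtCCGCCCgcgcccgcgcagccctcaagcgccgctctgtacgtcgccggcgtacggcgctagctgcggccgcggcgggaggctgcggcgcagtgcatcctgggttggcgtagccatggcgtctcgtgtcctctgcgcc
Ndufc2: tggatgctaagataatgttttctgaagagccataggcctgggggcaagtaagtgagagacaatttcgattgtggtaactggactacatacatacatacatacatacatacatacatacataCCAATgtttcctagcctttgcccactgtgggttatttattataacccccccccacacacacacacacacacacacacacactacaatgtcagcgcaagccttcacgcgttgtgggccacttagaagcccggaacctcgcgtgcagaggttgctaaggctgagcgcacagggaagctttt

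The window of Ndufab1 is 61.7% G and C, while that of Ndufc2 is 47.3% and holds runs of short repeats, against a median of 59.2% over the member promoters and 52.7% over all promoters in the table. Promoter entries were found for 32 of the 35 genes. Of the 6 motifs, the core of YY1 (ATGGCGG), a zinc-finger factor, had the share that differed most, as a ratio, from that in all promoters. It was found for 8 of 32 genes (25%), namely Ndufa1, Ndufa5, Ndufa7, Ndufa9, Ndufb5, Ndufs4, Ndufs6 and Ndufs7, and in 4.05% of all 32851 promoters. Ndufa5 and Ndufa7 have more than a single promoter in the table, and a match in either counted. None of these 8 genes was called. The assembly factor gene Tmem126b, called lower and also on chromosome 7, had 5 matches to the 6 motifs, this core among them. Its window is not printed. The SP1 GC box was found for 46.9% of the genes against 35.7% of all promoters, and CCAAT for 31.3% against 37.4%. The core of NRF1 (GCGCATGCG), a factor long linked to respiratory chain genes, matched in 6.25% against 1.75%, the ETS core (CCGGAAG) in 12.5% against 8.86% and the half-site of estrogen-related receptors (AAGGTCA) in 9.38% against 4.72%. The motifs were matched independently, and a match to letters is not a site of binding.

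In the N module, 1 of 9 genes, Ndufs1, was lower and 8 of 9 had negative log2 fold changes, with a median of -0.05. The other core genes were near their WT levels. Ndufv1, whose product binds NADH and flavin, was at 494.1 ± 12.5 CPM in Vps13c-cKO and 513.9 ± 13.9 CPM in WT (SD, n = 6 each; log2 fold change -0.06 ± 0.03 SE, edgeR adjusted p = 0.277). Ndufv2, which carries an iron-sulfur cluster beside it, was at 319.0 ± 7.85 CPM in Vps13c-cKO and 330.6 ± 16.7 CPM in WT (log2 fold change -0.05, adjusted p = 0.425). In the same module Ndufs4, Ndufs6, Ndufa2, Ndufa7 and Ndufv3 had log2 fold changes of -0.05 to 0.01. Whether Ndufs1 fell further than its core partners in this module was not tested.

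Ndufa12 stood apart by its spread. It encodes an accessory subunit at the join of the N and Q modules, which takes the place that the assembly factor Ndufaf2 holds during assembly. Its level was 92.8, 82.1, 140, 77.1, 152 and 99.7 CPM in Vps13c-cKO mice 1 to 6, against 139, 84.1, 116, 157, 129 and 163 CPM in WT mice 1 to 6. Vps13c-cKO mice 3 and 5 lay with the WT mice, and WT mouse 2 lay with the low Vps13c-cKO mice. The log2 fold change of -0.29 ± 0.15 (SE) was as large as that of Ndufab1 and was not called (edgeR adjusted p = 0.254, 95% interval -0.61 to 0.03). Over all alternatives run its log2 fold change was -0.42 to -0.21, with adjusted p from 0.0795 to 0.467. Its within-group SD of log2(CPM + 2) was 0.371, against a median of 0.0831 over the subunit genes and 0.183 for the next highest, Ndufb2. Only 48 of the 12384 tested genes (0.388%) varied as much, and the source of this spread was not tested. Ndufaf2 was at 13.3 ± 1.40 CPM in Vps13c-cKO and 12.1 ± 1.247 CPM in WT (SD, n = 6 each; adjusted p = 0.367).

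**Figure D2:**
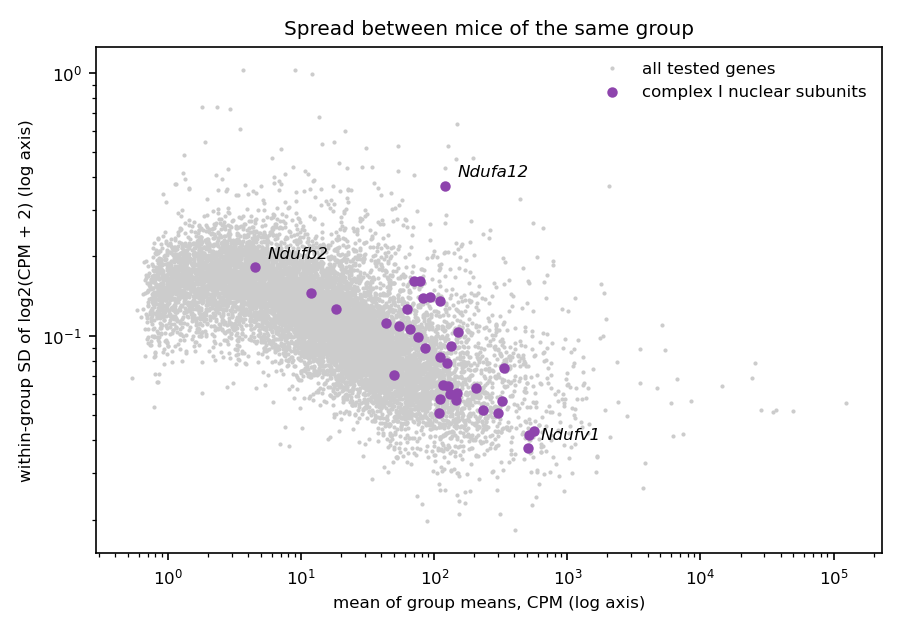
Within-group SD of log2(CPM + 2) on the y axis against mean CPM on the x axis, both log axes, for all 12384 tested genes (grey) and the 35 subunit genes (purple). Ndufa12, at 0.371, lies above most genes of its level, while the median subunit gene is at 0.0831 and Ndufv1 is lowest at 0.0374.

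In the Q module, 0 of 6 genes were called and log2 fold changes lay between -0.04 and 0.01. Ndufs3, a core subunit of this module, was at 230.4 ± 2.92 CPM in Vps13c-cKO and 234.6 ± 11.7 CPM in WT (SD, n = 6 each; log2 fold change -0.03, edgeR adjusted p = 0.724). Ndufs7, which carries the last cluster before ubiquinone, was at 107.3 ± 2.87 CPM in Vps13c-cKO and 108.6 ± 4.66 CPM in WT (adjusted p = 0.827). Ndufs8, another iron-sulfur subunit, was at 116.6 ± 4.72 CPM in Vps13c-cKO and 116.0 ± 5.85 CPM in WT (adjusted p = 0.95). Ndufa9, an accessory subunit near the quinone site, had the smallest p of the module (log2 fold change -0.04 ± 0.03 SE, adjusted p = 0.487). The 95% intervals of all 6 genes lay within 0.32 of 0 on the log2 scale.

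In the proximal membrane arm, 1 of 9 genes, Ndufc2, was lower. The other eight ranged from -0.07 to 0.05. Ndufa8, a cysteine-rich subunit on the intermembrane side, was at 199.4 ± 6.33 CPM in Vps13c-cKO and 209.5 ± 11.4 CPM in WT (SD, n = 6 each; log2 fold change -0.07 ± 0.04 SE, edgeR adjusted p = 0.27). Ndufc1, whose product is a small neighbour of Ndufc2, was at 60.8 ± 4.49 CPM in Vps13c-cKO and 63.7 ± 6.53 CPM in WT (log2 fold change -0.07 ± 0.06 SE, adjusted p = 0.568). Ndufa10, related to nucleoside kinases, was at 518.6 ± 11.2 CPM in Vps13c-cKO and 501.1 ± 17.5 CPM in WT (log2 fold change 0.05 ± 0.03 SE, adjusted p = 0.375). Ndufa1, Ndufa3, Ndufa11, Ndufa13 and Ndufs5 made up the rest of this arm. Ndufa13 shares 30% of its exon length with Tssk6 on the opposite strand.

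In the distal membrane arm, 0 of 10 genes were called, 2 had an unadjusted p under 0.05 (23.8% over all tested genes), and the signs were mixed, with 6 negative and 4 positive. Ndufb9, an LYR-motif protein that binds acyl carrier protein, had 17.6, 17.5, 15.8, 14.3, 18.9 and 18.2 CPM in Vps13c-cKO mice 1 to 6, against 17.8, 21.3, 17.7, 18.1, 19.1 and 21.5 CPM in WT mice 1 to 6. The groups overlapped and the log2 fold change of -0.17 ± 0.08 (SE) did not pass the adjustment (edgeR adjusted p = 0.163). Part of Ndufb9's exon length (19.5%) is shared with a read-through gene on the same strand, which can take reads from it. Ndufb11, on the X chromosome, was at 123.2 ± 4.85 CPM in Vps13c-cKO and 130.9 ± 6.49 CPM in WT (log2 fold change -0.09 ± 0.04 SE, adjusted p = 0.183). The highest log2 fold changes of all subunits were also here, 0.09 ± 0.06 for Ndufb6 (adjusted p = 0.409) and 0.08 ± 0.04 for Ndufb7 (adjusted p = 0.314), and neither was called. Ndufb6 shares 39% of its exon length with Smim27 on the opposite strand. Ndufb3, Ndufb4, Ndufb5, Ndufb8 and Ndufb10 lay between -0.08 and 0.05. Ndufb8 and Ndufb2 also share exons with read-through genes on the same strand.

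**Figure D3:**
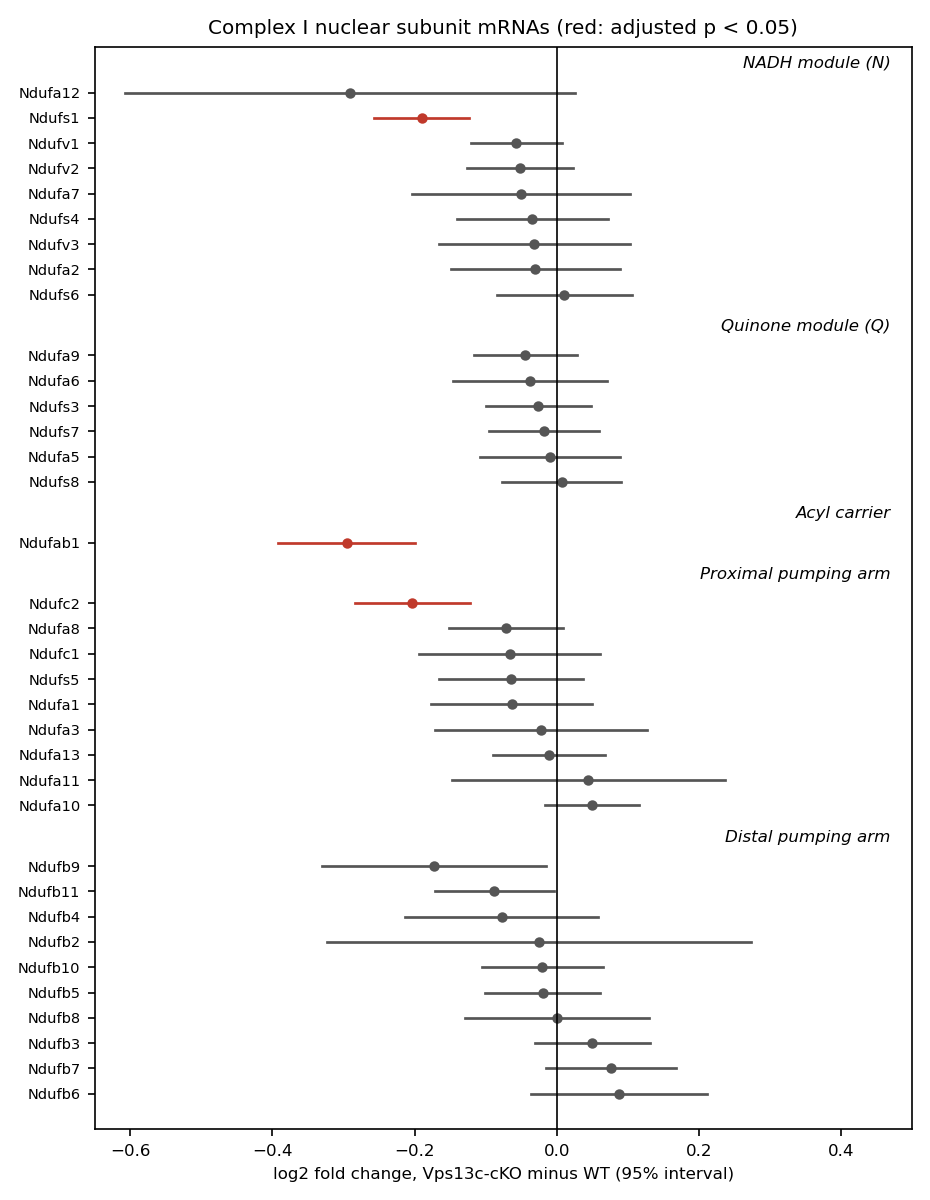
Log2 fold change (Vps13c-cKO minus WT, x axis) with its 95% interval for each subunit gene, grouped by module from top to bottom, with called genes in red. The intervals of Ndufs1, Ndufab1 and Ndufc2, and of the uncalled Ndufb9 and Ndufb11, lie wholly below 0, Ndufa12 has the widest interval (-0.61 to 0.03) and most other genes sit within 0.1 of 0.

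Over the whole set, 27 of 35 log2 fold changes were negative and the median was -0.03, against 49.98% negative and a median of 0.00 over all tested genes. Of the 32 genes not called, 29 had a 95% interval within 0.32 of 0 on the log2 scale, so larger changes of these were outside their intervals. The exceptions were Ndufa12, Ndufb2 and Ndufb9. The summed level of the 35 genes was 5148 to 5507 CPM in Vps13c-cKO mice and 5210 to 5751 CPM in WT mice, which overlap, with means of 5298 ± 129 CPM in Vps13c-cKO and 5492 ± 229 CPM in WT (SD, n = 6 each), or 96.5% of WT. The share was 93.3% for the N module, 98.2% for Q, 98.4% for the proximal arm and 99.3% for the distal arm. The sums of the groups overlapped in each of these, in N at 1833 to 1993 CPM in Vps13c-cKO and 1981 to 2165 CPM in WT. The N sum includes Ndufs1 and the widely spread Ndufa12. Core genes together, Ndufs1 included, were at 94.2%. Their sums did not overlap, at 1762 to 1826 CPM in Vps13c-cKO and 1857 to 1972 CPM in WT. Of the 6 core genes, only Ndufs1 was called or had groups that did not overlap, and the sum without Ndufs1 was not taken. Accessory genes were at 97.7%, and their sums overlapped, at 3374 to 3717 CPM in Vps13c-cKO and 3348 to 3830 CPM in WT. Leaving out WT mouse 4 moved the median most towards 0, to -0.01, and without WT mouse 1 or WT mouse 3 the median was -0.06.

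Several markers of other cells moved with genotype, where the shares over all tested genes were 5.10% lower and 5.65% higher. Of 9 fibroblast markers, 6 were higher and 0 lower, with a summed level of 1291 to 1451 CPM in Vps13c-cKO and 1134 to 1234 CPM in WT. Of 8 macrophage markers, 4 were higher and 0 lower, at 312 to 367 CPM in Vps13c-cKO and 247 to 337 CPM in WT. Of 12 cardiomyocyte markers, 4 were lower and 2 higher, and their sum was 94.6% of WT (70700 to 76817 CPM in Vps13c-cKO, 74460 to 80780 CPM in WT). Of 8 endothelial markers 1 was lower, and of 6 tested smooth muscle and pericyte markers 2 were lower and 1 higher. In bulk tissue, fewer cells of a type and less RNA per cell cannot be told apart, and the part of cell composition in the subunit values was not tested.

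**Figure D4:**
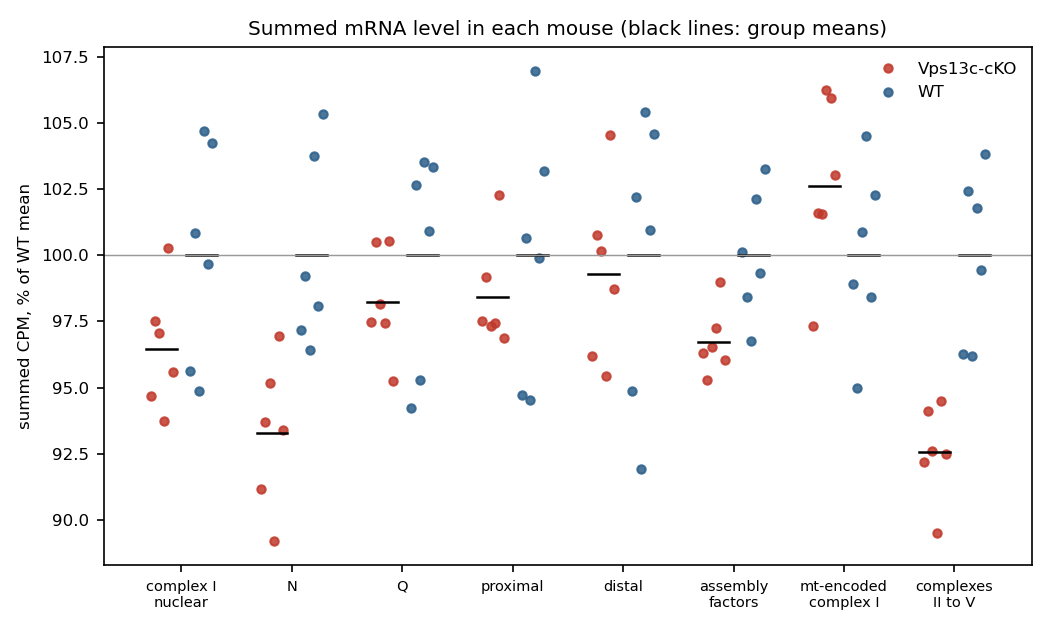
Summed CPM of each list in each mouse as a percent of the WT mean (y axis, not starting at 0), Vps13c-cKO in red left of WT in blue, with black lines for group means. Complex I nuclear genes overlap between groups at a Vps13c-cKO mean of 96.5%, the sum for complexes II to V does not overlap at 92.6%, and mitochondrially encoded complex I genes are at 102.6%.

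The rest of the respiratory chain was counted in the same way. Nuclear genes of complexes II to V were lower for 11 of 42 and higher for 0, with a median log2 fold change of -0.09, against 3 of 35 and -0.03 for complex I. Over all tested genes, 5.10% were lower and 5.65% higher. The sum over complexes II to V was 20161 to 21279 CPM in Vps13c-cKO and 21663 to 23391 CPM in WT, which do not overlap. Lower genes numbered 2 of 4 in complex II, 2 of 9 in complex III, 2 of 14 in complex IV and 5 of 15 in ATP synthase. Whether complex I differs from these complexes was not tested.

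The mitochondrial genome supplies the core subunits of the membrane arm, and 0 of 7 were called in either direction by edgeR, with 2 at an unadjusted p under 0.05 (23.8% over all tested genes). Their summed level was 125228 to 136739 CPM in Vps13c-cKO and 122232 to 134521 CPM in WT. mt-Nd4, a proton-pumping subunit, came closest, at 25128 ± 903 CPM in Vps13c-cKO and 23340 ± 1326 CPM in WT (SD, n = 6 each; log2 fold change 0.11 ± 0.03 SE, edgeR adjusted p = 0.0533). mt-Nd2 had a log2 fold change of 0.07 ± 0.03 (adjusted p = 0.131). The call on mt-Nd4 turned on the settings. It passed in 7 of 19 alternatives, limma-voom among them but not DESeq2, with adjusted p from 0.0158 to 0.135, and it was 0.12 without Vps13c-cKO mouse 1 and 0.13 without WT mouse 4, called in both. The ratio of the mitochondrial to the nuclear sum was 24.1 to 26.6 in Vps13c-cKO and 22.1 to 24.9 in WT, which overlap.

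Assembly factors put the subunits together and leave the finished complex. Of 18 tested, 1 was lower (5.10% over all tested genes, 8.90% on chromosome 7) and 0 higher (5.65% over all tested genes). Their median log2 fold change was -0.03. The lower one was Tmem126b (ENSMUSG00000030614, chromosome 7), a membrane protein that works with Acad9, Ecsit, Ndufaf1 and Timmdc1 on the proximal arm. It had 35.5, 33.2, 35.3, 32.4, 30.0 and 34.7 CPM in Vps13c-cKO mice 1 to 6, against 36.0, 40.5, 39.0, 37.2, 36.7 and 41.0 CPM in WT mice 1 to 6. The groups were apart by a narrow gap, and the log2 fold change was -0.19 ± 0.05 (SE, edgeR adjusted p = 0.0175), called in all 20 alternatives at adjusted p from 0.0109 to 0.0477. Its 4 partners were not called, with Acad9 at -0.10 ± 0.06 (adjusted p = 0.3) and the others between -0.01 and 0.06. Beside Tmem126b on chromosome 7, Dlg2, at 3.50 CPM in Vps13c-cKO and 1.89 CPM in WT, rose by 0.90 ± 0.20 (SE) on the log2 scale (adjusted p = 0.00525). The other nearest tested genes had negative log2 fold changes and were not called. They were Tmem126a (-0.16 ± 0.06 SE, edgeR adjusted p = 0.121), Ccdc90b (-0.18 ± 0.07 SE, adjusted p = 0.114) and Crebzf (-0.02 ± 0.06 SE, adjusted p = 0.881). Foxred1, a flavin-binding assembly factor on chromosome 9, was at 70.6 ± 3.62 CPM in Vps13c-cKO and 77.5 ± 4.36 CPM in WT (log2 fold change -0.13, adjusted p = 0.0592). It was called when Vps13c-cKO mouse 2 or WT mouse 3 was left out (adjusted p = 0.0338 and 0.0337).

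Levels per length differed widely between subunits that are assembled in fixed proportions. CPM was divided by the length in kb of the longest principal transcript for this. Ndufb10, a cysteine-rich distal subunit, was highest at 452 ± 11.5 CPM per kb in Vps13c-cKO and 459 ± 31.6 CPM per kb in WT (SD, n = 6 each), and Ndufv1 came next at 297 ± 7.53 in Vps13c-cKO and 309 ± 8.38 in WT. Ndufb2, a small distal subunit, was lowest, at 1.02 CPM per kb in Vps13c-cKO and 1.04 in WT (log2 fold change -0.02 ± 0.14 SE, edgeR adjusted p = 0.949). With the shortest principal transcript it was still lowest, at 9.83 in Vps13c-cKO and 10.01 in WT. Its exons overlap a read-through gene on the same strand and Braf on the opposite strand, and counting rules that drop ambiguous reads can lower it. Ndufab1 was second lowest at 12.8 CPM per kb in Vps13c-cKO and 15.7 in WT, and ranked 32 of 35 with the shortest principal transcript, at 31.4 in Vps13c-cKO and 38.6 in WT. With that length Ndufa11, an accessory subunit at the contact with complex III, was second lowest, at 21.9 in Vps13c-cKO and 21.3 in WT.

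**Figure D5:**
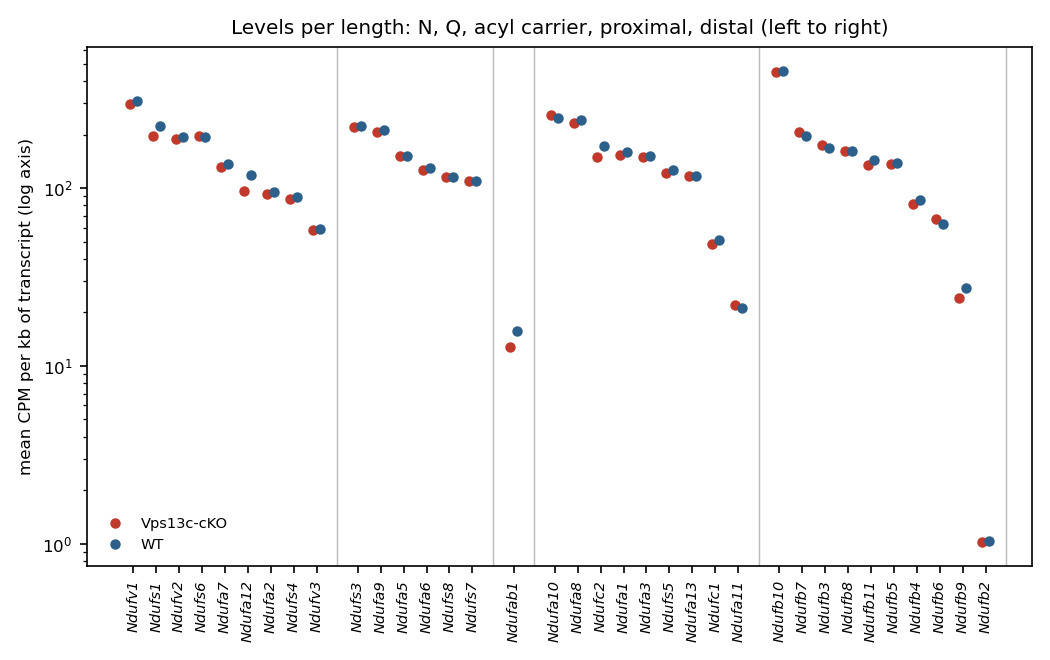
Mean CPM per kb of the longest principal transcript (y axis, log) for each subunit gene, ordered within each module, with Vps13c-cKO in red and WT in blue. Ndufb10 is highest (452 in Vps13c-cKO and 459 in WT), and Ndufb2 (1.02 in Vps13c-cKO and 1.04 in WT) and Ndufab1 (12.8 in Vps13c-cKO and 15.7 in WT) are lowest at the lengths used.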

How the data were processed

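The authors deposited 1 table of read counts, whole numbers by gene and mouse per the file headers, without any scaling. Tools listed in the submitters' processing notes are fastp 0.22.0, HISAT2 2.1.0 and HTSeq 0.9.1, and the build is GRCm39. Neither annotation release nor strand setting is given, so it is unknown whether reads of genes overlapping on opposite strands were separated, and such genes are uncertain to that extent. Per the labels' protocols, libraries were amplified by PCR, so counts are reads, not molecules.

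Of 21959 gene IDs, 21902 were named through GENCODE M21, an annotation of another build used for names, chromosomes, gene order, exon overlap and lengths. Genes were tested on the counts with edgeR 4.0.16 (filterByExpr, TMM, quasi-likelihood F test, two-sided, Vps13c-cKO against WT, Benjamini-Hochberg over 12384 genes) in R 4.3.3, after a check on simulated data. The biological coefficient of variation was 0.0661. Sums over lists used library sizes over all gene IDs, and single-gene CPM those over tested genes. The 12 columns were matched to mice by name, with 0 columns left unused. Intervals are 95%.

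The members and lists were chosen with earlier results of these data known. The 8 hepatocyte genes were chosen after the libraries had been seen. Genes named with values are the called members, the 2 of smallest p in each module, core subunits, those of highest and lowest level per length or largest rise, and the called or nearest assembly factors and mitochondrially encoded subunits. Ndufa3, Ndufa5, Ndufa10, Ndufa11, Ndufc1, Ndufaf2, fast-fibre genes, the partners of Tmem126b and the neighbours of called genes were named after their values were seen. Alternatives were other scalings and filters, DESeq2 1.42.0, limma-voom 3.58.1, a replicate block and leaving out each mouse. A recount of the main fit without chromosome 7 genes, with no refit, was added after seeing the data. Promoter windows are from RefSeq (GRCm38.p6).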

Additional observations from a re-analysis of the deposited data

Results flagged for a closer look

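In each group of 6 mice, the gap between an extreme mouse and its nearest neighbour was set against the range of the group for the subunit genes, list sums and library measures. Of 98 groups examined, 3 had a mouse farther out than Dixon's 95% value, which is set to be passed by about 5% of groups by chance. That share is no test of the count, because member genes are also inside the sums. The hepatocyte genes and the genes of the atrial sum were also settled after values had been seen. WT mouse 1 had 114.6 CPM of Ndufa5, a Q-module accessory subunit, with the next WT mouse at 133 CPM and the highest at 141 CPM. Vps13c-cKO mouse 1 had 4433 counts over 8 hepatocyte genes, 3016 of them from Alb, against at most 35 in the other Vps13c-cKO mice. WT mouse 4 had 952 counts over the atrial genes Sln, Myl7 and Myl4, against at most 19 in the other WT mice. Nppa, the other atrial marker listed, is left out of that sum because it was higher in Vps13c-cKO mice, at 156 to 372 counts, against 110 in WT mouse 4 and 43 to 76 in the other WT mice.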

How the results depend on the processing

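Ndufs1, Ndufab1 and Ndufc2 were each called lower in all 20 alternatives run on them, at log2 fold changes of -0.20 to -0.17, -0.33 to -0.28 and -0.22 to -0.19. The number of members called lower was 3 in each of these, and 0 were higher. A recount of the main fit without chromosome 7 genes, with no refit, gave 1, since 2 of the called genes lie there. The summed level in Vps13c-cKO over WT was 0.955 to 0.974 as a ratio. The number of mitochondrially encoded genes called higher was 1, mt-Nd4, with upper-quartile factors, with a minimum mean of 5 CPM, with limma-voom and with the replicate block. It ranged from 0 to 1 when single mice were left out, with 1 without Vps13c-cKO mouse 1, WT mouse 4 or WT mouse 6. Assembly factors called lower were 1 to 2 when single mice were left out, with Foxred1 added without Vps13c-cKO mouse 2 or WT mouse 3. The cause was not tested. No other count changed by over 1.5 times. The largest shift of the median of all genes was 0.0127 (log2), in the fit without a filter.

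Mice with the same number did not deviate together in the pairing check, with correlations of -0.0442 to 0.104, and 2 of 12 mice correlated best with their own number, so the numbers were not taken as pairs. With the replicate block, 3 members were lower and 0 higher.

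Signs turned in 34 values of single members under the alternatives, over 11 uncalled genes near 0, and 665 values kept both sign and call. Ndufb8 was at -0.00136 without mitochondrially encoded genes, -0.00697 without a filter and -0.00016 by DESeq2, and Ndufs8 at -0.000315 without a filter. With single mice left out, log2 fold changes ranged from -0.0426 to 0.0416 for Ndufb8, -0.0129 to 0.0322 for Ndufs8, -0.0282 to 0.0192 for Ndufa13, -0.0643 to 0.00521 for Ndufa2, -0.086 to 0.0187 for Ndufa3, -0.0499 to 0.00755 for Ndufa5, -0.0931 to 0.0185 for Ndufa7, -0.0514 to 0.00188 for Ndufb10, -0.121 to 0.0544 for Ndufb2, -0.010 to 0.0386 for Ndufs6 and -0.0699 to 0.0136 for Ndufv3. Ndufb2 was not tested at a minimum mean of 5 CPM. Ndufb2 had the lowest count level of the subunits, at means of 4.47 CPM in Vps13c-cKO and 4.56 CPM in WT.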

Other observations

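Counts per length differed greatly among the mitochondrially encoded complex I genes. Whether they reflect transcript levels was not tested. mt-Nd1 was at 36464 CPM per kb in Vps13c-cKO and 36978 in WT. The shortest genes were lowest. mt-Nd3 (348 bases) was at 197 in Vps13c-cKO and 191 in WT, and mt-Nd4l (297 bases) at 37.7 in Vps13c-cKO and 32.6 in WT. mt-Nd4, which overlaps mt-Nd4l by 7 bases, was at 18235 in Vps13c-cKO and 16938 in WT. mt-Nd6, encoded on the other strand of the mitochondrial genome, was at 10031 CPM per kb in Vps13c-cKO and 9633 in WT.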
